A study of Mus musculus with 6 samples.

Results

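Cholesterol and fatty acid synthesis genes were compared between pRb-expressing and pRb-deficient mouse osteoblasts. They are 34 genes chosen by name for their roles: 18 enzymes of cholesterol synthesis, 5 genes of the sterol-sensing system that governs them, 9 enzymes that make, desaturate or elongate fatty acids, and 2 sterol transport genes. A gene was measured through the probe sets to which the array's annotation gives its symbol alone, and where several did, the brightest on average over all 6 arrays was taken. By this rule 33 of the 34 members had a probe set, out of 18193 genes on the array, and all 33 passed the filter on low signals, as did 16308 genes in all. The annotation used here gives no probe set for Acat2, the cytosolic thiolase that opens the mevalonate pathway, and its expression was not analysed here.

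RNA came from MC3T3 cells, which here are calvarial osteoblasts of embryonic day 18.5 mice that were immortalized by serial passage under the 3T3 protocol and grown in medium with 10% serum. There were 3 pRb-expressing cultures (labelled wild type) and 3 pRb-deficient cultures (labelled RB knock-out), with 1 array each. The mice carried a flox19 RB1 allele on a C57BL/6 background and were crossed with 2.3- and 3.6-Col1a1-Cre transgenics, in which fragments of the type I collagen promoter drive Cre in osteoblasts, and F2 animals were used, with control littermates giving the pRb-expressing cells. The labels call the cultures biological replicates but do not say whether those of a group came from separate animals or lines, so p-values reflect no more than how these cultures vary, which may be technical variation, and the line of origin and pRb status cannot be told apart.

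Cells make cholesterol from acetyl-CoA by way of mevalonate, farnesyl pyrophosphate, squalene and lanosterol. The genes of this pathway are switched on together by the SREBP transcription factors, which SCAP escorts out of the endoplasmic reticulum when membrane sterol is low and which the INSIG proteins hold back when it is high. The same family of factors also drives fatty acid synthesis and desaturation, while the LXR receptors respond to a surplus of oxysterols and switch on cholesterol export. Osteoblasts need this pathway for membranes and for the isoprenoids that anchor small GTPases.

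Rb1, which encodes pRb, had a signal of 1116 ± 9.17 (SD, n = 3) with pRb and 131 ± 10.4 (SD, n = 3) in cultures labelled as knock-out (log2 fold change −3.09, limma adjusted p = 4.94e-06); whether the probe set lies in the excised part was not examined. Signals are MAS5 values without a unit, each array scaled to the same trimmed mean, and 24.4% to 26.6% of probe sets an array were at or below the floor of 32 used here. Pearson's r of log2 signals over probe sets was 0.979 to 0.987 between arrays within a group and 0.928 to 0.932 between arrays of different groups. The differences were broad: among all genes tested, 23.4% were lower and 18.5% higher in pRb-deficient cultures at an adjusted p under 0.05, with a median log2 fold change of −0.09, and whole chromosomes were shifted, from a median of −0.58 on chromosome 6 to 0.35 on chromosome 15 (other genes with a mean of 200 or more, without the Y chromosome). Xist, the noncoding RNA of the inactive X, went from 168 to 10965 and the Y-linked genes Eif2s3y, Kdm5d and Uty, with means of 519 to 889 in pRb-expressing cultures, were under 32 in every pRb-deficient culture, so the cultures of the 2 groups also differ in sex chromosomes. All log2 fold changes are pRb-deficient over pRb-expressing and come with their standard error (SE) from limma, with p-values adjusted over all 38427 probe sets tested.

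Most of the members were lower without pRb. Of 33, 23 fell, 4 rose and 6 did not pass the test, which is 69.7% lower and 12.1% higher, against 23.4% and 18.5% of all genes. The median log2 fold change of the members was −0.72, and 29 of the 33 values were negative. In 27 members every pRb-deficient culture was below every pRb-expressing culture and in 4 every one was above, where 30.6% and 23.2% of all genes showed such a gap in the lower and the higher direction. The falls were spread over the whole cholesterol pathway, whereas the rises were those of Abca1, Elovl5, Scap and Insig2.

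**Figure D1:**
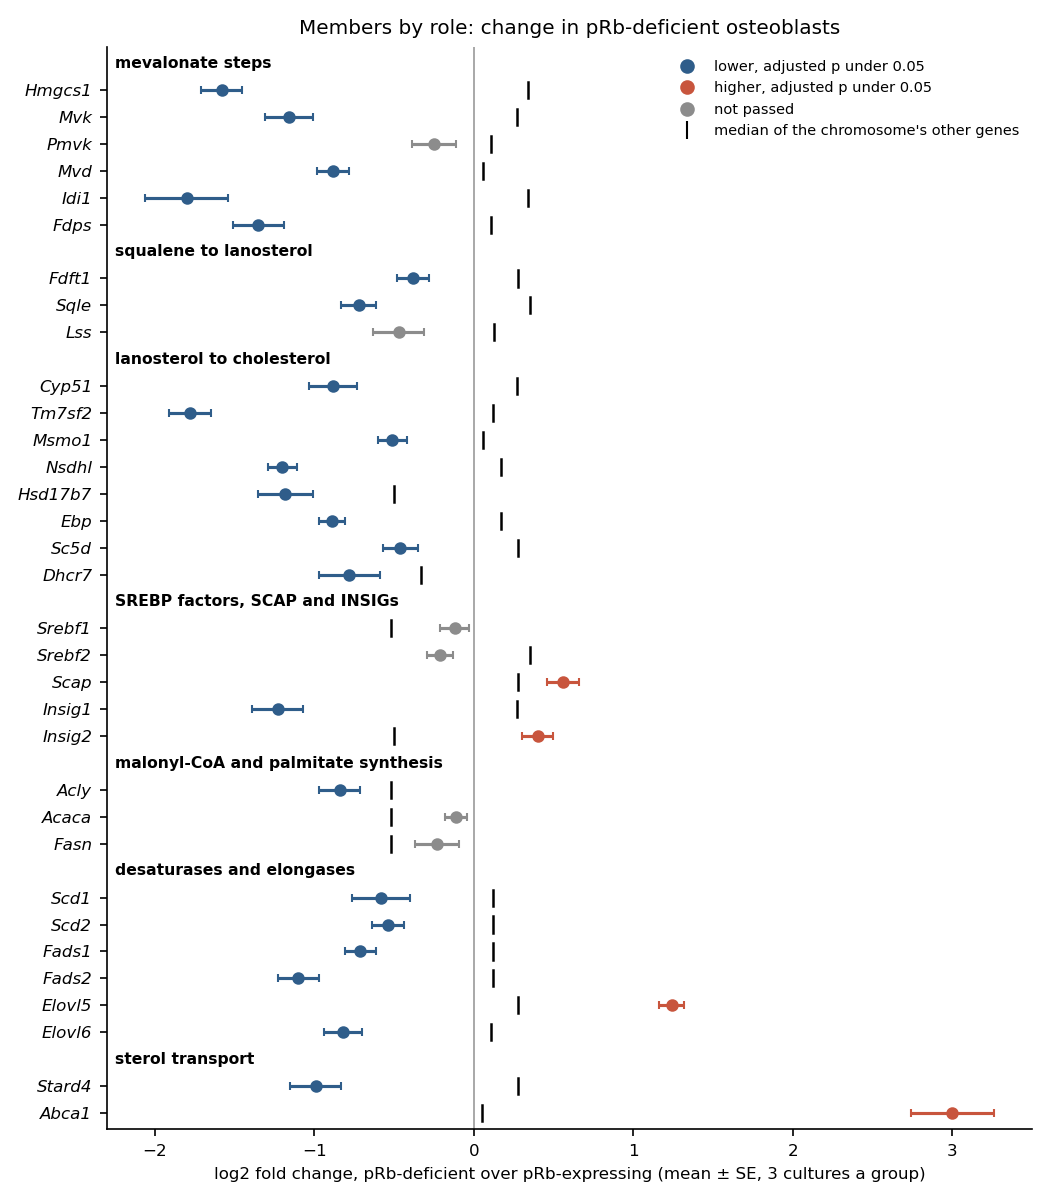
Log2 fold change of each member in pRb-deficient over pRb-expressing osteoblasts (points, with SE bars, 3 cultures a group), grouped by role, with a black tick at the median log2 fold change of the other genes on the same chromosome. Every cholesterol synthesis enzyme, from Hmgcs1 to Dhcr7, lies below 0 and below its tick, and Abca1 at 3.00 and Elovl5 at 1.24 stand at the far right.

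The mevalonate steps, which build farnesyl pyrophosphate, had the lowest median of the role groups: 5 of 6 measured enzymes were lower and none higher, with a median log2 fold change of −1.26. Hmgcs1, the cytosolic synthase that makes HMG-CoA, had signals of 9480, 9271 and 9014 in the pRb-expressing cultures and of 2545, 3245 and 3602 in the pRb-deficient cultures. The pRb-deficient values were 33.5% of the pRb-expressing ones on geometric means, with no overlap and with replicate 1 the lowest (log2 fold change −1.58, SE 0.13, adjusted p = 0.000134, limma). Idi1, the isomerase that makes dimethylallyl pyrophosphate, singled out because it fell the most of all members, went from 3543, 3298 and 3396 to 627, 1106 and 1360. The SD of its log2 signal was 0.05 over the pRb-expressing and 0.58 over the pRb-deficient cultures, again with replicate 1 the lowest, and the groups did not overlap (log2 fold change −1.80, SE 0.26, adjusted p = 0.00184, limma).

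Fdps, the farnesyl pyrophosphate synthase and the target of bone-active bisphosphonates, read 8032, 8137 and 7296 with pRb and 2334, 3538 and 3491 without it. That is a log2 fold change of −1.35 (SE 0.16, adjusted p = 0.000828, limma), and the highest pRb-deficient culture was below the lowest pRb-expressing one. Mvk, mevalonate kinase, was at 1069, 923 and 873 in pRb-expressing and at 360, 516 and 414 in pRb-deficient cultures, 44.7% of the control on geometric means (log2 fold change −1.16, SE 0.15, adjusted p = 0.0011, limma). Mvd, the decarboxylase that forms isopentenyl pyrophosphate, changed less, from 768, 850 and 770 to 418, 406 and 470 (log2 fold change −0.88, SE 0.10, adjusted p = 0.000521, limma). Both kinds of culture were apart for Mvk and for Mvd, but replicate 1 was not the lowest for Mvd. The remaining enzyme, phosphomevalonate kinase (Pmvk), had a log2 fold change of −0.25 that did not pass (SE 0.14, adjusted p = 0.229, limma), although its pRb-deficient signals of 511 to 536 all lay below the pRb-expressing range of 542 to 766.

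The promoters of 3 of these enzymes are shown because their genes fell together on 2 chromosomes, 13 (Hmgcs1 and Idi1) and 5 (Mvk), whose other genes were shifted upward. Each window runs from 250 bases before the annotated start to 50 after it, from the RefSeq annotation of GRCm38.p6, and is written along the gene's strand. Capitals mark the letters TCACNCCAC, a form of the sterol regulatory element bound by SREBPs, and CCAAT, the box bound by NF-Y, or ATTGG where CCAAT is on the other strand. Hmgcs1 lies on the plus strand at chr13:119690101-119690400, Idi1 on the plus strand at chr13:8885356-8885655 and Mvk on the plus strand at chr5:114444019-114444318.
Hmgcs1: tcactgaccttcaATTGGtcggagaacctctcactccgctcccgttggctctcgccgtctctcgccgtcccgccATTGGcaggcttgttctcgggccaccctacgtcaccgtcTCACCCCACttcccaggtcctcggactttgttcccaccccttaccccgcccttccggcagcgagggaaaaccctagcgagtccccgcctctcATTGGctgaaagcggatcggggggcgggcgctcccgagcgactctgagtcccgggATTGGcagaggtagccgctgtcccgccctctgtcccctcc
Idi1: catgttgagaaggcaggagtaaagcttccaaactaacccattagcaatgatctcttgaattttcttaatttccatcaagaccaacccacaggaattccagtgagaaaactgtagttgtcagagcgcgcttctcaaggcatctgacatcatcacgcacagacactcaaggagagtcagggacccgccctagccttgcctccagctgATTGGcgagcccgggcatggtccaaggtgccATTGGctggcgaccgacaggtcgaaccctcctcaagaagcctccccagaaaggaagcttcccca
Mvk: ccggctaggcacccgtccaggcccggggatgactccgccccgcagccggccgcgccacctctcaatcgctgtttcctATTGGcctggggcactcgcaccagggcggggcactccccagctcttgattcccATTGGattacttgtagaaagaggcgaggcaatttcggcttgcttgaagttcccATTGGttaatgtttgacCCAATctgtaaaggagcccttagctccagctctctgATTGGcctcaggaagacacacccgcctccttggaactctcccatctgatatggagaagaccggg
Counting the start as 0, the match to the sterol element in Hmgcs1 ran from −137 to −129 and stood between CCAAT boxes at −176 and −45, while Idi1 held CCAAT boxes at −45 and −14 and Mvk held 5. These are matches of letters and not sites shown to be bound.

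Of the 3 enzymes that turn farnesyl pyrophosphate into lanosterol, 2 fell and 1 did not pass. Squalene epoxidase (Sqle), a control point of the pathway below mevalonate, had signals of 4310, 3867 and 4026 in pRb-expressing and of 2095, 2601 and 2765 in pRb-deficient cultures, so the groups were well apart. Its log2 fold change was −0.72 (SE 0.11, adjusted p = 0.00255, limma). Squalene synthase (Fdft1) changed by −0.38 (SE 0.10, adjusted p = 0.0211, limma), from 2578, 2665 and 2346 to 2017, 2115 and 1728, and its call was lost without pRb-expressing replicate 1 (adjusted p = 0.0734) or replicate 2 (adjusted p = 0.0765). Lanosterol synthase (Lss) went from between 1099 and 1337 to 687, 976 and 1000, with a gap between the groups but a log2 fold change of −0.47 that did not pass (SE 0.16, adjusted p = 0.0611, limma). Without pRb-deficient replicate 3 the value for Lss was −0.56 and passed (limma adjusted p = 0.0438).

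All 8 enzymes that convert lanosterol to cholesterol fell, with a median of −0.89, and none of the 8 had groups that overlapped. Tm7sf2, a sterol reductase of the endoplasmic reticulum, had signals of 543, 634 and 532 with pRb and of 152, 178 and 168 without it. The change was −1.78 on the log2 scale (SE 0.13, adjusted p = 9.36e-05, limma), and the pRb-deficient cultures differed little among themselves (SD of log2 signal 0.12). Nsdhl, the dehydrogenase that takes part in removing methyl groups from the sterol ring, went from 2535, 2418 and 2320 to 928, 1132 and 1117 (log2 fold change −1.20, SE 0.09, adjusted p = 0.000126, limma). Ebp, the sterol isomerase, went from 5136, 4938 and 5514 to 2566, 2850 and 2998 (log2 fold change −0.89, SE 0.08, adjusted p = 0.000237, limma). Nsdhl and Ebp are X-linked, and their falls stand against a median of 0.17 over the other genes of that chromosome in cultures that differ in Xist; the part of X dosage in these values was not tested.

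Hsd17b7, the ketoreductase of the same demethylation, read 1642, 1617 and 1850 with pRb and 578, 789 and 929 without it. Its log2 fold change of −1.18 (SE 0.17, adjusted p = 0.00183, limma) exceeded the median of −0.50 of chromosome 1, on which it lies. The other members of this stretch changed less: lanosterol demethylase (Cyp51) by −0.88 and methylsterol monooxygenase (Msmo1) by −0.51, with adjusted p-values of 0.00322 and 0.00517 from limma. The final reductase Dhcr7 changed by −0.78, with signals of 1195, 1567 and 1374 against 600, 949 and 901 and replicate 1 again the lowest. Its adjusted p from limma was 0.0184, which rose to 0.0681 without pRb-expressing replicate 2 and to 0.0574 without replicate 3, and it lies on chromosome 7, whose other genes had a median of −0.33. The sterol desaturase Sc5d changed by −0.46 (adjusted p = 0.016, limma), a call lost without pRb-expressing replicate 1 (0.0605) or 2 (0.0567).

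**Figure D2:**
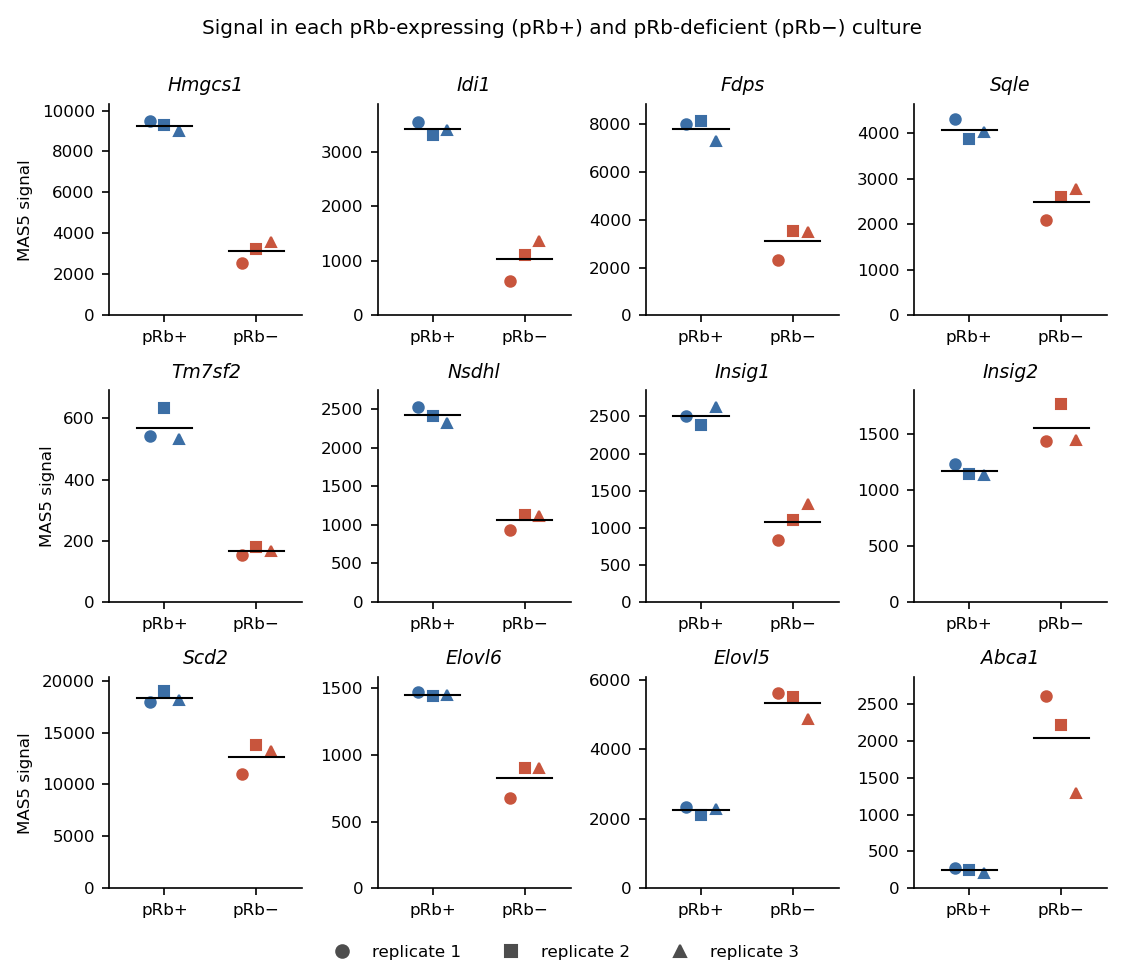
MAS5 signal (linear axis from 0) of 12 members in each of the 3 pRb-expressing (pRb+, blue) and 3 pRb-deficient (pRb−, red) cultures, with marker shape giving the replicate number and a line at the group mean. The groups are apart in all 12 panels, Insig2, Elovl5 and Abca1 being the ones that are higher without pRb.

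The genes of the sterol-sensing system did not move as 1 group: Insig1 fell, Scap and Insig2 rose, and neither SREBP gene passed. Srebf1, the SREBP that favors fatty acid genes, had signals of 940, 986 and 1004 in pRb-expressing and of 808, 937 and 959 in pRb-deficient cultures, which overlapped (log2 fold change −0.12, SE 0.09, adjusted p = 0.367, limma). Srebf2, the SREBP that favors cholesterol genes, was at 1496, 1581 and 1404 with pRb and at 1194, 1335 and 1352 without it. Its change of −0.21 left a narrow gap between the groups and did not pass (SE 0.08, adjusted p = 0.0946, limma). These are transcript levels, and the array does not measure the cleaved SREBP proteins that act in the nucleus.

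Insig1, itself a classic SREBP target, dropped from 2501, 2385 and 2624 to 830, 1101 and 1317, or 42.5% on geometric means (log2 fold change −1.23, SE 0.16, adjusted p = 0.00112, limma). The groups did not overlap and replicate 1 was the lowest pRb-deficient culture. Insig2, its paralog, which is not under SREBP control in the same way, went the other way, from 1231, 1141 and 1140 to 1438, 1771 and 1451. This rise was 0.40 on the log2 scale (SE 0.10, adjusted p = 0.018, limma) on a chromosome whose other genes had a median of −0.50, and its call was lost without pRb-expressing replicate 2 (adjusted p = 0.0634) or 3 (0.0632). Scap, the escort protein, rose from 1201, 1440 and 1247 to 2028, 1962 and 1737 (log2 fold change 0.56, SE 0.10, adjusted p = 0.00419, limma). Its chromosome, 9, had a median of 0.28, and with chromosome medians removed the value of Scap was 0.28 and did not pass (limma adjusted p = 0.0723). A dim second probe set of Scap, averaging 56.4, gave −0.33 and did not pass (limma adjusted p = 0.232). The Insig1 promoter (plus strand of chr5:28071162-28071461, GRCm38.p6, RefSeq) is shown for contrast with that of Hmgcs1: it held no match to the sterol element as spelled above and 1 CCAAT box, from −216 to −212.
Insig1: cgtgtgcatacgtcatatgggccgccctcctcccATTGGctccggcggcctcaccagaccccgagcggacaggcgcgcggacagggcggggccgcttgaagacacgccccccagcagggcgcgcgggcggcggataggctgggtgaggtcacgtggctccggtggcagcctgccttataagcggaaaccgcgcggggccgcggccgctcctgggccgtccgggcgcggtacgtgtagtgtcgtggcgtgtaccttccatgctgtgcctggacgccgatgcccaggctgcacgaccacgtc

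Fatty acid synthesis up to palmitate changed less than cholesterol synthesis, with 1 of its 3 members lower. Acly, the citrate lyase that supplies cytosolic acetyl-CoA to both pathways, had signals of 6101, 6100 and 6362 in pRb-expressing and of 2843, 3518 and 4165 in pRb-deficient cultures. The groups were apart (log2 fold change −0.84, SE 0.13, adjusted p = 0.00281, limma), but the gene lies on chromosome 11, whose other genes had a median of −0.52, and with chromosome medians removed the value was −0.30 (adjusted p = 0.13). Acetyl-CoA carboxylase (Acaca), which makes malonyl-CoA, was at 1047, 1052 and 1023 against 959, 1005 and 922, a log2 fold change of −0.11 that did not pass (adjusted p = 0.258, limma). Fatty acid synthase (Fasn) gave 2847, 2514 and 2673 against 1859, 2295 and 2786, so its groups overlapped (−0.23, SE 0.14, adjusted p = 0.282, limma), and without pRb-deficient replicate 3 it passed at −0.37 (adjusted p = 0.0426). Acaca, Fasn and Srebf1 also lie on chromosome 11, and once its median was removed their values turned positive, to 0.42 for Acaca (limma adjusted p = 0.00414), 0.31 for Fasn (limma adjusted p = 0.151) and 0.42 for Srebf1 (limma adjusted p = 0.0109).

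Of the 6 desaturases and elongases, 5 fell and Elovl5 rose. Fads1 and Fads2, the desaturases that make long polyunsaturated fatty acids, lie side by side on chromosome 19. Fads2 went from 2257, 2023 and 2171 to 909, 1227 and 902 (log2 fold change −1.10, SE 0.13, adjusted p = 0.000738, limma). Fads1 went from 5178, 5075 and 5032 to 3396, 3279 and 2693 (log2 fold change −0.71, SE 0.10, adjusted p = 0.00131, limma). For both genes every pRb-deficient culture was below every pRb-expressing culture. Elovl6, which elongates palmitate toward stearate, was at 1471, 1440 and 1450 with pRb and at 681, 907 and 900 without it (log2 fold change −0.82, SE 0.12, adjusted p = 0.0019, limma). The stearoyl-CoA desaturase Scd2, with signals averaging 18339 with pRb and 12661 without it, changed by −0.54 (adjusted p = 0.00505, limma). Its neighbor Scd1 changed by −0.58, from between 4135 and 4517 to 3016, 3671 and 2145, with an adjusted p of 0.0457 from limma that crossed the threshold when any 1 pRb-expressing culture was left out (0.0951 to 0.124) or pRb-deficient replicate 1 (0.0744).

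Elovl5, which elongates polyunsaturated fatty acids, had signals of 2340, 2119 and 2276 in pRb-expressing and of 5610, 5487 and 4876 in pRb-deficient cultures. It was 2.37-fold higher without pRb on geometric means (log2 fold change 1.24, SE 0.08, adjusted p = 5.23e-05, limma), with no overlap and with 94.5% of all genes tested having a lower value. Its chromosome, 9, had a median of 0.28. Its promoter (plus strand of chr9:77917115-77917414, GRCm38.p6, RefSeq) is shown because this member rose while the 5 others of its group fell. It held CCAAT boxes at −71 and −17 and no match to the sterol element.
Elovl5: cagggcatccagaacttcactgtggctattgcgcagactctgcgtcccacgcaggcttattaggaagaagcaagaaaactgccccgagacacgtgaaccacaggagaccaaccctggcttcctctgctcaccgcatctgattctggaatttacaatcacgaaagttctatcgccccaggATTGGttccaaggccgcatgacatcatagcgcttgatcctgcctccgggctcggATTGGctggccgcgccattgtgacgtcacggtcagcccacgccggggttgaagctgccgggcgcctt

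The 2 sterol transport genes moved in opposite directions. Stard4, a carrier that moves cholesterol between membranes inside the cell, had signals of 1964, 1919 and 1681 in pRb-expressing and of 732, 995 and 1102 in pRb-deficient cultures. The groups did not overlap (log2 fold change −0.99, SE 0.16, adjusted p = 0.00264, limma). Abca1, the pump that exports cholesterol to lipid-poor apolipoproteins and a target of LXR, went from 277, 250 and 211 to 2605, 2213 and 1286, the largest change of any member. Every pRb-deficient culture was far above every pRb-expressing one, though replicate 3 was well below replicate 1 (log2 fold change 3.00, SE 0.26, adjusted p = 0.000188, limma), and 98.8% of all genes tested had a lower value. Its promoter (minus strand of chr4:53159846-53160145, GRCm38.p6, RefSeq) is shown as that of the member that rose most: it held neither the sterol element nor CCAAT, but 2 copies of the GC box GGGCGG, at −163 and −97, left in lower case.
Abca1: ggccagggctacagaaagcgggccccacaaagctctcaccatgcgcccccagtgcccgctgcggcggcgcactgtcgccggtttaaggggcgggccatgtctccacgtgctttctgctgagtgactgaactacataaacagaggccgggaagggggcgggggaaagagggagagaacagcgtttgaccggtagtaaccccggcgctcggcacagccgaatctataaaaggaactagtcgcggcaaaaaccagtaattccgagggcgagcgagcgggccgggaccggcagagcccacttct

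For 5 pairs of paralogs the difference in log2 signal within each array was compared between the groups by a two-sided exact permutation test, which with 3 cultures against 3 cannot give a p below 0.1. Insig1 changed by 1.64 less than Insig2 on the log2 scale (difference of the changes −1.64, SE 0.21, exact p = 0.1, 0.167 after adjustment over the 5 pairs). Elovl5 changed by 2.07 more than Elovl6 (SE 0.18, exact p = 0.1, adjusted 0.167). For Fads1 against Fads2 the difference was 0.39 (SE 0.15, exact p = 0.1, adjusted 0.167). In these 3 pairs the groups did not overlap, which is the most this design can show. The 2 SREBP genes differed by 0.09 (SE 0.07, exact p = 0.4, adjusted 0.5) and Scd1 and Scd2 by −0.04 (SE 0.25, exact p = 1.0, adjusted 1.0), with overlapping groups in both.

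Motifs were counted on either strand in the promoter windows of the 27 members that have one in the table used, beside all 27025 genes with a window, and a gene counted once if any of its windows held the letters. The 27 include Acat2, whose expression was not analysed. The sterol element TCACNCCAC was found in 1 member, Hmgcs1 (3.70%, against 1.44% of all genes and 1.46% of the 13018 genes tested that have a window). CCAAT was found in 21 members (77.8%, against 41.1% of all and 42.0% of tested genes), among them 14 of the 16 members with a window that fell. The GC box GGGCGG was found in 22 members (81.5%, against 38.2% of all and 60.5% of tested genes) and TTTNGCGC, a form of the E2F site, in none of the 27 (against 1.57% and 2.41%). None of these strings contains another. Of the tested genes with CCAAT 24.5% were lower in pRb-deficient cultures and of those without it 24.0%. For the sterol element these shares were 23.2% and 24.2%, and for the GC box 26.8% and 20.2%. Genes with the GC box were also more often higher, 22.2% against 12.4% without it. Their median log2 fold change was −0.08, against −0.11 without the box. A match is a description of the letters in these windows, which leave out more distant elements.

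Genes next to the members in metabolism did not share the fall. Across 4 lists of related genes, 65 were tested, of which 9 were lower and 25 higher (13.8% and 38.5%, against 23.4% and 18.5% of all genes), with a median log2 fold change of 0.20. Among other genes of sterol synthesis and SREBP processing, 2 of 9 fell and 4 rose. The latter included Erlin1 and Erlin2, whose products help degrade sterol-regulated proteins in the endoplasmic reticulum, at 1.60 and 0.51 (limma adjusted p = 0.000125 and 0.00223). Rnf139, a ubiquitin ligase of the same membrane, rose by 0.34 and the related Rnf145 changed by −0.54 (limma adjusted p = 0.00433 and 0.000905), but these values are those of their chromosomes, whose medians were 0.35 and −0.52. The proteases that cleave SREBPs, Mbtps1 and Mbtps2, had values of −0.06 and −0.07 that did not pass (limma adjusted p = 0.823 and 0.784).

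In the list of sterol uptake, storage and efflux, 2 of 16 fell and 5 rose. Mylip, the ligase that marks lipoprotein receptors for degradation and an LXR target like Abca1, had signals of 3022, 2853 and 2981 in pRb-expressing and of 1144, 866 and 510 in pRb-deficient cultures. It thus went opposite to Abca1 (log2 fold change −1.89, SE 0.27, adjusted p = 0.00162, limma). Abcg1, another sterol exporter under LXR, and the receptor gene Nr1h3 did not pass (−0.23 and 0.07, limma adjusted p = 0.539 and 0.847). Lrp8, a lipoprotein receptor, rose by 2.04, Nceh1, which hydrolyses stored cholesteryl esters, by 1.28, and Npc1, which exports cholesterol from lysosomes, by 1.17 (limma adjusted p = 0.000632, 0.000864 and 0.00217). The branch that uses farnesyl and isoprenyl units for other ends had no gene lower and 5 of 10 higher, among them Pdss2 and Coq2 of ubiquinone synthesis at 1.67 and 0.63, the methyltransferase Icmt at 0.54 and the dolichol gene Nus1 at 0.35 (limma adjusted p = 0.000228, 0.000446, 0.00425 and 0.00577).

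The list of other genes of fatty acid synthesis, activation and esterification had 5 of 30 lower and 11 higher. Acss2, the cytosolic acetyl-CoA synthetase, went from 690, 699 and 651 to 231, 235 and 212 (log2 fold change −1.59, SE 0.10, adjusted p = 5.15e-05, limma). Acsl3, which activates long-chain fatty acids, changed by −1.24 (limma adjusted p = 4.09e-05). Each of these 2 genes kept its pRb-deficient cultures close together and apart from the control. The elongases Elovl4 and Elovl7 rose from near the floor, Elovl4 from 44.4, 29.5 and 47.6 to 485, 398 and 434 and Elovl7 from 34.1, 39.2 and 27.3 to 317, 403 and 351 (limma adjusted p = 5.17e-05 and 3.5e-05). Of the elongase genes measured, Elovl4, Elovl5 and Elovl7 thus rose, Elovl6 fell, and Elovl1 and Elovl3 did not pass (−0.12 and 0.13, limma adjusted p = 0.352 and 0.698).

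**Figure D3:**
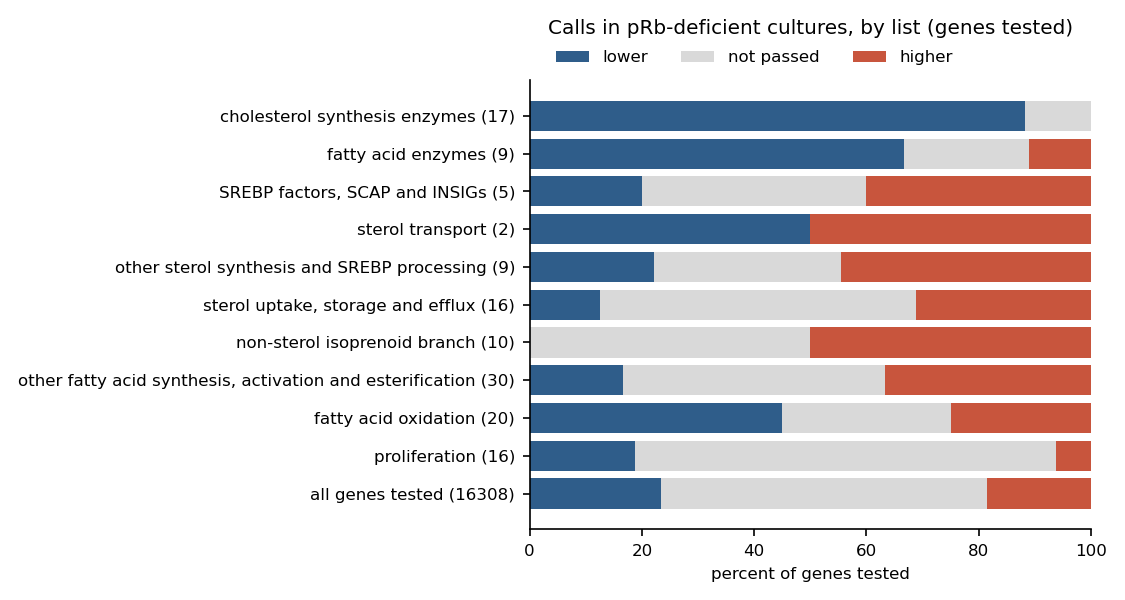
Percent of the tested genes of each list that were lower (blue), not passed (grey) or higher (red) in pRb-deficient cultures at a limma adjusted p under 0.05, with the number tested in brackets and all genes at the bottom. Cholesterol synthesis enzymes are 88.2% lower, against 23.4% of all genes, and the related lists above fatty acid oxidation hold more genes higher than lower.

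Fatty acid oxidation, taken as the opposing pathway, had 9 of 20 genes lower and 5 higher, with a median of −0.26. Decr1 and Hadh, enzymes of mitochondrial oxidation, changed by −1.30 and −0.73, and the electron carrier subunit Etfb by −0.98 (limma adjusted p = 1.86e-05, 0.000153 and 7.25e-05). The nuclear receptor gene Ppard rose by 1.49 (limma adjusted p = 0.000428). So 45.0% of this list was lower, against 23.4% of all genes and 88.2% of the cholesterol enzymes. The oxidation list thus also leaned lower, with its median of −0.26 against −0.09 for all genes. The 5 of 20 that were higher stand against 18.5% of all genes.

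Because whole chromosomes differed between the groups, each member was set against the median of the other genes of its chromosome. All 17 cholesterol synthesis enzymes lay below that median, by a median of 1.06 on the log2 scale (−1.06), and 15 of them lay on chromosomes whose median was above 0. The exceptions were Hsd17b7 on chromosome 1 and Dhcr7 on chromosome 7. Over all members 26 of 33 were below their chromosome, and 8260 of 16175 genes with a chromosome were. With each chromosome's median removed from every array, 23 members were lower and 5 higher, against 19.2% and 19.5% of all genes. Lss and Srebf2 joined the lower ones, at −0.61 (adjusted p = 0.0254, limma) and −0.58 (adjusted p = 0.00175, limma). Dhcr7 and Acly left the lower ones, Srebf1 and Acaca became higher and Scap no longer passed. The number of gene copies was not measured.

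The pRb-deficient cultures differed among themselves more for the members than for other genes. The median SD of log2 signals over the 33 members was 0.080 with pRb and 0.210 without it, against 0.092 and 0.153 over all genes whose mean was 200 or more. Replicate 1 was the lowest pRb-deficient culture for 24 of 33 members (72.7%) and for 15 of 17 cholesterol synthesis enzymes, where it was the lowest for 35.0% of all genes. The median shift of these 17 enzymes from the pRb-expressing mean was −1.19 in replicate 1, −0.86 in replicate 2 and −0.76 in replicate 3. For 3 of the 4 members that rose, Abca1, Elovl5 and Scap, replicate 1 was the highest.

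A list of 11 stress and RNA quality genes differed between the same cultures: 5 were higher and 1 lower, and their summed signal was 16073 to 19299 with pRb and 43726, 35873 and 28296 in pRb-deficient replicates 1, 2 and 3, with none of the 11 at 0. Within it, 4 genes of the amino acid and unfolded protein response, singled out after their values were seen, followed that order. Ddit3 was at 1138 to 1184 with pRb and at 7892, 2514 and 1210 without it, and Chac1 at 1248 to 1465 and at 4512, 2642 and 1288. Atf3 gave 1020, 463 and 132 and Trib3 3050, 1518 and 481 in the 3 pRb-deficient cultures, against 103 to 122 and 704 to 922, and none of the 4 passed the test. The rest of the list did not share 1 order. Gadd45a fell from replicate 1 to 3 as well. Jun (4481, 6460 and 7104) and Dnajb1 (1622, 1900 and 2136) ran the opposite way, and Hspa1a, Hspa1b, Fos and Egr1 were highest in replicate 2. The 16 proliferation genes, 3 of which were lower and 1 higher, summed to 58644 to 59989 in pRb-expressing and to 41607, 50674 and 66326 in pRb-deficient cultures.

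In replicate 3, Chac1 was within the control range, Ddit3 and Atf3 just above it and Trib3 below it. Other genes of the list were far above the control there, with Hspa1a at 579 (8.6 to 21.3 with pRb), Jun at 7104 (998 to 1167) and Gadd45a at 1182 (310 to 339), all 3 of which passed. The cholesterol enzymes of this culture were shifted by −0.76. Without replicate 1, 22 members were lower and 4 higher, against 23.8% and 18.9% of all genes, and 15 of the 17 cholesterol enzymes were lower. With replicate 3 as the only pRb-deficient culture, which gives no spread for that group, Hmgcs1 and Idi1 had log2 fold changes of −1.36 and −1.33. Scap was at 0.43 and Insig2 at 0.31 there, against 0.56 and 0.40 with all 3 pRb-deficient cultures. The part of stress, growth or culture density in the remaining difference was not tested.

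**Figure D4:**
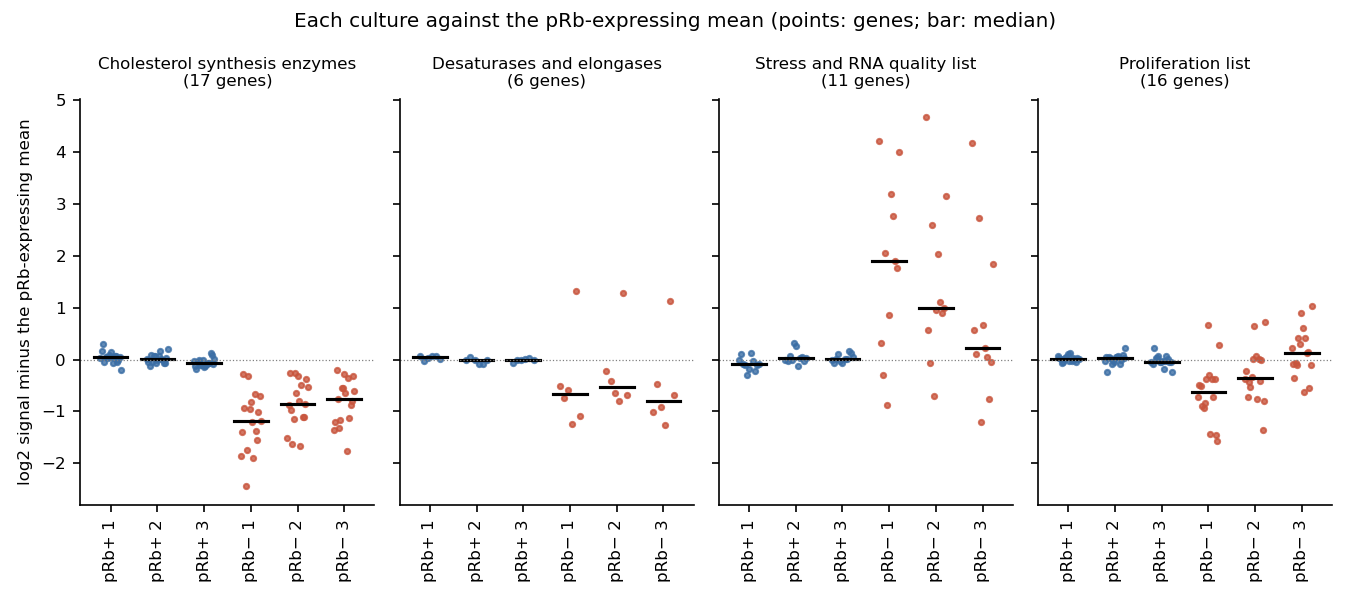
Log2 signal (floored at 32) of each gene minus its mean over the pRb-expressing cultures, in each of the 3 pRb-expressing (pRb+, blue) and 3 pRb-deficient (pRb−, red) cultures, with a bar at the median over genes. The cholesterol synthesis enzymes are shifted downward in all 3 pRb-deficient cultures (−1.19, −0.86 and −0.76), while the stress list is shifted by 1.89, 0.98 and 0.23 and the proliferation list by −0.62, −0.36 and 0.13.

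Markers of other cell types, most of which make or handle much lipid, were measured in the same arrays. The 4 tested adipocyte markers (summed signal 318 to 455 with pRb and 312 to 424 without it), the 4 hepatocyte markers (234 to 329 and 180 to 254), the 5 endothelial markers (416 to 523 and 414 to 450) and the 3 steroidogenic markers (337 to 398 and 286 to 548) held no gene that passed. Of these, 3, 4, 4 and 2 markers had no array above 200, and 2 further adipocyte, 1 hepatocyte and 2 steroidogenic markers were at or below the floor on every array. Of 6 macrophage markers (summed signal 2329 to 2493 and 867 to 1057) 1 rose and 1 fell, the latter being Lyz2, from 1612 to 113 on average. All 5 measured osteoblast markers were lower in pRb-deficient cultures: the summed signal was 38487 to 45704 with pRb and 17657 to 27505 without it, and Ibsp, a bone matrix protein gene at 2007 to 2895 with pRb, was under 32 in each pRb-deficient culture, as was Sp7, an osteoblast transcription factor gene, in replicate 2. In bulk RNA such as this, fewer cells of a type and less RNA per cell cannot be told apart, and the part of the lower osteoblast markers in the members' values was not tested.

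The members' other probe sets were also compared. The array holds 77 probe sets for the 33 members, of which 44 were lower, 9 higher, 21 did not pass and 3 were not tested, against 18.8% lower and 16.2% higher among all probe sets. Of the 44 that were not the brightest of their gene, 21 were lower and 5 higher, and 0 had a call opposite to that of the brightest. The brightest probe sets of Hmgcs1 and Acly are of a kind (suffix x) whose probes can match other transcripts, but the 4 other probe sets of Hmgcs1 gave −1.57, −1.65, −1.82 and −1.95, and those of Acly with signals above 1000 gave −0.83 and −1.02. Idi1 had a second probe set at −1.73, Elovl5 at 1.31, and Abca1 2 more at 2.05 and 2.46. Among other probe sets with a mean of 200 or more, 4 did not repeat the call of the brightest. They were the 2 dimmer ones of Sc5d, at −0.12 and −0.15 (adjusted p = 0.448 and 0.635, limma), 1 of Scd1 at −0.33 (adjusted p = 0.0822, limma) and 1 of Stard4 at −0.76 (adjusted p = 0.0527, limma).

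**Figure D5:**
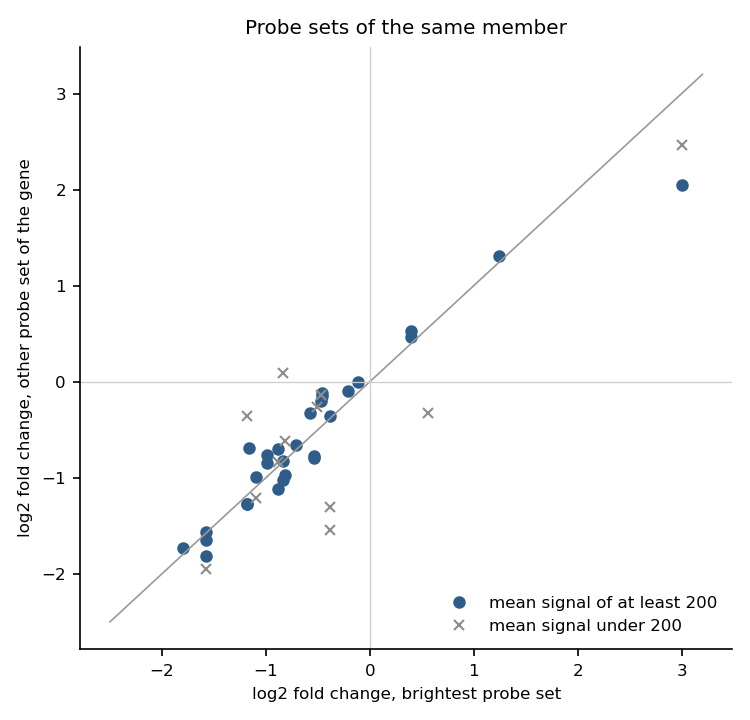
Log2 fold change (pRb-deficient over pRb-expressing) of each tested probe set that is not the brightest of its member, against that of the brightest, with circles for a mean signal from 200 upward, crosses for dimmer ones and a line of equality. Most circles lie near the line, with Hmgcs1 and Idi1 at the lower left. The Abca1 circle at the upper right lies below the line, at 2.05 against 3.00. The points farthest from the line are mostly crosses.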

How the data were processed

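RNA of 3 pRb-expressing and 3 pRb-deficient cultures was hybridised to Affymetrix mouse arrays with 45101 probe sets, of which 64 are controls. The deposited intensity values are MAS5 signals on a linear scale, made by the authors with Affymetrix Microarray 5.0 software per their methods; the submitters' processing notes name MAS5 and Affymetrix Expression Console 1.1. The mean of each array without its highest and lowest 2% was 500.0, so differences are relative to an unchanged array total. Genes were taken from GEO's platform annotation, which can be old, with 34945 probe sets naming 1 gene, 932 several and 9160 none. Signals below 32 were set to 32 and log2 was taken; 6610 probe sets at or below 32 on all arrays were left out and 38427 were tested in limma 3.58.1 (R 4.3.3) by a fit with an intensity trend and moderated statistics (lmFit and eBayes), with Benjamini-Hochberg adjustment and a threshold of 0.05. Genes kept 1 probe set, the brightest. The floor understates changes of dim genes, and the number of arrays, which leaves 4 residual degrees of freedom, limits the precision. The script was tested on simulated data.

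The members and gene lists were chosen with earlier results of these data known. All members were named, with full statistics for up to 4 genes of each role with the lowest adjusted p, and up to 4 genes past the threshold from each related list. Idi1, the member that fell most, and Pmvk, Lss, Srebf1, Srebf2 and Fasn, which did not pass, were given full statistics as well. Mbtps1, Mbtps2, Abcg1, Nr1h3, Elovl1, Elovl3, Lyz2, Ibsp, Sp7, Hspa1a, Hspa1b, Dnajb1, Jun, Fos, Egr1 and Gadd45a were named outside that rule, after their values were seen. Alternatives changed the floor, filter, normalization, variance model, replicate block, chromosome medians, probe set and cultures used. Of the members, 27 had promoter windows in the RefSeq table used, without Fdps, Fdft1, Sqle, Scd1, Scd2, Fads1 and Stard4.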

Additional observations from a re-analysis of the deposited data

How the results depend on the processing

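Of the 27 members that passed, 19 kept their call under all 19 refits, which were 18 planned ones and 1 added after seeing the data. Leaving out each culture in turn gave 19 to 25 members lower and 3 to 4 higher. Of all genes, 19.1% to 23.8% were lower and 15.1% to 18.9% higher in those fits. The fits also gave 12 to 16 cholesterol enzymes lower, a member median of −0.80 to −0.62, and 6 to 10 related genes lower and 20 to 26 higher. The difference of Scd1 minus Scd2 was −0.17 to 0.20. With the replicate number as a block, 23 members were lower and 4 higher, against 21.5% and 17.5% of all genes, and no member's call changed. Same-numbered cultures did not deviate together after group means were removed (r 0.02, −0.03 and 0.06). This does not settle whether they were handled as pairs. With chromosome medians removed, Srebf1 (0.42), Acaca (0.42) and Fasn (0.31) turned positive. With a change of at least 2-fold required, 9 members were lower and 2 higher, against 8.33% and 7.28% of all genes. At that threshold 7 cholesterol enzymes were lower, 3 related genes lower and 11 higher, and 10 other probe sets lower and 3 higher. Array quality weights gave 14 related genes lower, with 31.7% of all genes lower. With pRb-deficient replicate 3 alone, Fasn was at 0.06. The cause of these differences was not tested. Scd1 lost its call in 9 of the 19 refits. Median centring moved the median of all genes from −0.09 to −0.03 and the share of higher among all calls from 44.2% to 49.3%. The methods' rank test with a permutation false discovery rate was not run: the smallest exact p for 3 against 3 is 0.1.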
